A study of Homo sapiens with 4 samples.

Results

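The 48 genes described here encode the machinery that copies DNA and the enzymes that supply its building blocks. They were taken from a fixed list of symbols, and each of the 48 symbols was found in exactly 1 of the 58365 rows of the expression table. The list runs from the proteins that mark and license replication origins, through the replicative helicase, the sliding clamp and its loaders, the DNA polymerases and the enzymes that join new strands, to nucleotide synthesis. The rule is the list of names and uses no measured value, although earlier results of these data were known when the list was made.

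The RNA came from H1, a long-used line of human embryonic stem cells (hESCs), that had been driven stepwise towards blood. The cells received activinA (40 ng/ml) and BMP4 (50 ng/ml) for 2 days, then VEGF (40 ng/ml) and bFGF (50 ng/ml) for 3 days. In the last 3 days VEGF and bFGF continued, either with SB431542, a small molecule that blocks the type I receptors of TGFβ, activin and nodal (2 libraries, "SB"), or with DMSO by title (2 libraries), and all cells were collected at day 8. Both groups are thus 1 cell line under 1 protocol and carry no transgene or edited allele by their labels. The study describes collecting CD31+ cells, a sort that the sample labels do not mention. The labels do not say whether replicates came from separate cultures, so p-values measure only the spread between these libraries.

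Before a cell can copy its genome, the origin recognition complex (ORC), CDC6 and CDT1 load the ring of MCM2 to MCM7 on origins. CDC45 and the GINS complex then join the ring to make the active helicase, and polymerase alpha with primase, polymerase delta and polymerase epsilon copy the unwound strands on the PCNA clamp. Many of these genes are transcribed in bursts around the start of S phase under the control of E2F factors, so their mRNA level in a cell population depends in part on how many cells are cycling. In bulk RNA of this kind, more cycling cells and more RNA per cell cannot be told apart. Blood progenitors leaving the endothelium are known to proliferate, and TGFβ is a textbook inhibitor of the G1 to S transition in many cell types.

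To show the DNA from which some of these genes start, their promoters were searched for the letters of the E2F motif. Promoter sequences from RefSeq (GRCh38.p14, 250 bases before to 50 after the start) matched 41 of the 48 genes by symbol; the others were MCM4, MCM5, GINS4, DSCC1, POLD3, RPA2 and RPA3. The E2F letters were spelled as TTTCGCGC, TTTGGCGC, TTTCCCGC and TTTGCCGC and searched on both strands, and CCAAT, the letters bound by NF-Y, was searched in the same way and counted separately. At least 1 E2F match was found in 20 of the 41 promoters (48.8%), against 3.33% of all 27300 promoters in the RefSeq table. CCAAT was found in 24 of the 41 (58.5%), against 35.7% of all promoters, and 12 promoters held both. The MCM6 promoter held 4 E2F matches, the most of any member, and those of MCM2, MCM3 and MCM7 held more than 1. A match describes letters in the window and does not show that a factor was bound. The 4 promoters below belong to the members with the smallest unadjusted p among those with a match, and E2F matches are in capitals.
GINS2: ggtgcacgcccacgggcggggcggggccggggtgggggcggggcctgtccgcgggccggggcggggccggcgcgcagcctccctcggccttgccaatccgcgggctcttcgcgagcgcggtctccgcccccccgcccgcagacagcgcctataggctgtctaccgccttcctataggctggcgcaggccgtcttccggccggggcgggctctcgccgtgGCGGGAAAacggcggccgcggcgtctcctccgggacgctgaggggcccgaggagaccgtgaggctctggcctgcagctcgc
PCNA: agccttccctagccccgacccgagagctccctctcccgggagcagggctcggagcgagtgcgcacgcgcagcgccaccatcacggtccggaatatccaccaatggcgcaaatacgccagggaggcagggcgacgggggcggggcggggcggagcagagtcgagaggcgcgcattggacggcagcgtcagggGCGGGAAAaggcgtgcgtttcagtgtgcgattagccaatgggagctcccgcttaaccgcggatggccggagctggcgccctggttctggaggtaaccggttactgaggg
CDC6: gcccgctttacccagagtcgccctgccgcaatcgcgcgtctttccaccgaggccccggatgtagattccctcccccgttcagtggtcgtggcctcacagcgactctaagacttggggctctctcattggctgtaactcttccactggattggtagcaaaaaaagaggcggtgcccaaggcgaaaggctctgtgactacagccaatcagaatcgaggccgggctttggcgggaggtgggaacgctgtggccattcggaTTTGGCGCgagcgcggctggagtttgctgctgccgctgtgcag
TYMS: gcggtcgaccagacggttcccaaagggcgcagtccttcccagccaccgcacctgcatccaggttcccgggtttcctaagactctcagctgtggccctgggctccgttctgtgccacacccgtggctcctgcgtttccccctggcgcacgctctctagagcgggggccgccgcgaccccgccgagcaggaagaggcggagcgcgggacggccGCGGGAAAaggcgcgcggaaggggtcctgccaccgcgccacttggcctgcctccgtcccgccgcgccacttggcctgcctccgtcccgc
The windows lie at chr16:85688905-85689204 (minus strand) for GINS2, chr20:5126573-5126872 (minus strand) for PCNA, chr17:40287629-40287928 (plus strand) for CDC6 and chr18:657403-657702 (plus strand) for TYMS. With the start as position 1 and no position 0, the match began at -31 in GINS2, -59 in PCNA, 8 in CDC6 and -39 in TYMS. GINS2, PCNA and TYMS carried the same 8 letters, GCGGGAAA, which is TTTCCCGC read from the other strand. PCNA and CDC6 also held 3 CCAAT matches each, GINS2 held 1 and TYMS none (0 matches).

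The values are FPKM (fragments scaled to transcript length and to the mapped fragments of the library), which allow levels of different genes to be compared per length. Of the 58365 rows, 14909 had a mean of at least 1 FPKM in at least 1 group and were tested, and all 48 members were among them. The libraries summed to between 570844 and 612614 FPKM, and their relative depth lay between 75.1% and 100% of the deepest. A transcript with an effective length of 2000 nt gained 0.0193 to 0.0256 FPKM per fragment, so the lowest member value, 1.28 FPKM for GINS3 in DMSO replicate 1, stood for about 61.7 fragments at that length. The libraries of replicate number 1 differed from those of number 2 under both treatments. The mitochondrial share of all FPKM was 5.88% and 6.64% in number 1 and 9.92% and 10.2% in number 2, and the part of this in the results was not tested. Where a pair of values is given for a group, replicate number 1 comes first, and gene positions are those of the deposited table (GRCh38).

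The first question was whether replication genes as a group stood higher or lower after TGFβ inhibition. Most stood moderately higher. The summed level of the 48 genes was 845 and 777 FPKM with DMSO and 1024 and 972 FPKM with SB, which is 21.2% more in replicate number 1 and 25.1% more in number 2. Over the 48 genes the median ratio of mean FPKM, SB over DMSO, was 1.29. The ratio reached 1.5 in 5 genes (ORC1, GINS2, GINS3, GINS4 and CDC45) and 2 in 1 gene (GINS2). The shares of all tested genes at these ratios are not given, so both counts only describe the members. The plot of FPKM by library shows members higher with SB at low and high levels, from GINS3 to PCNA and MCM7. Some members of high level differed little, such as POLD2 (ratio of means 1.04), POLD1 (1.07) and LIG1 (0.966).

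**Figure D1:**
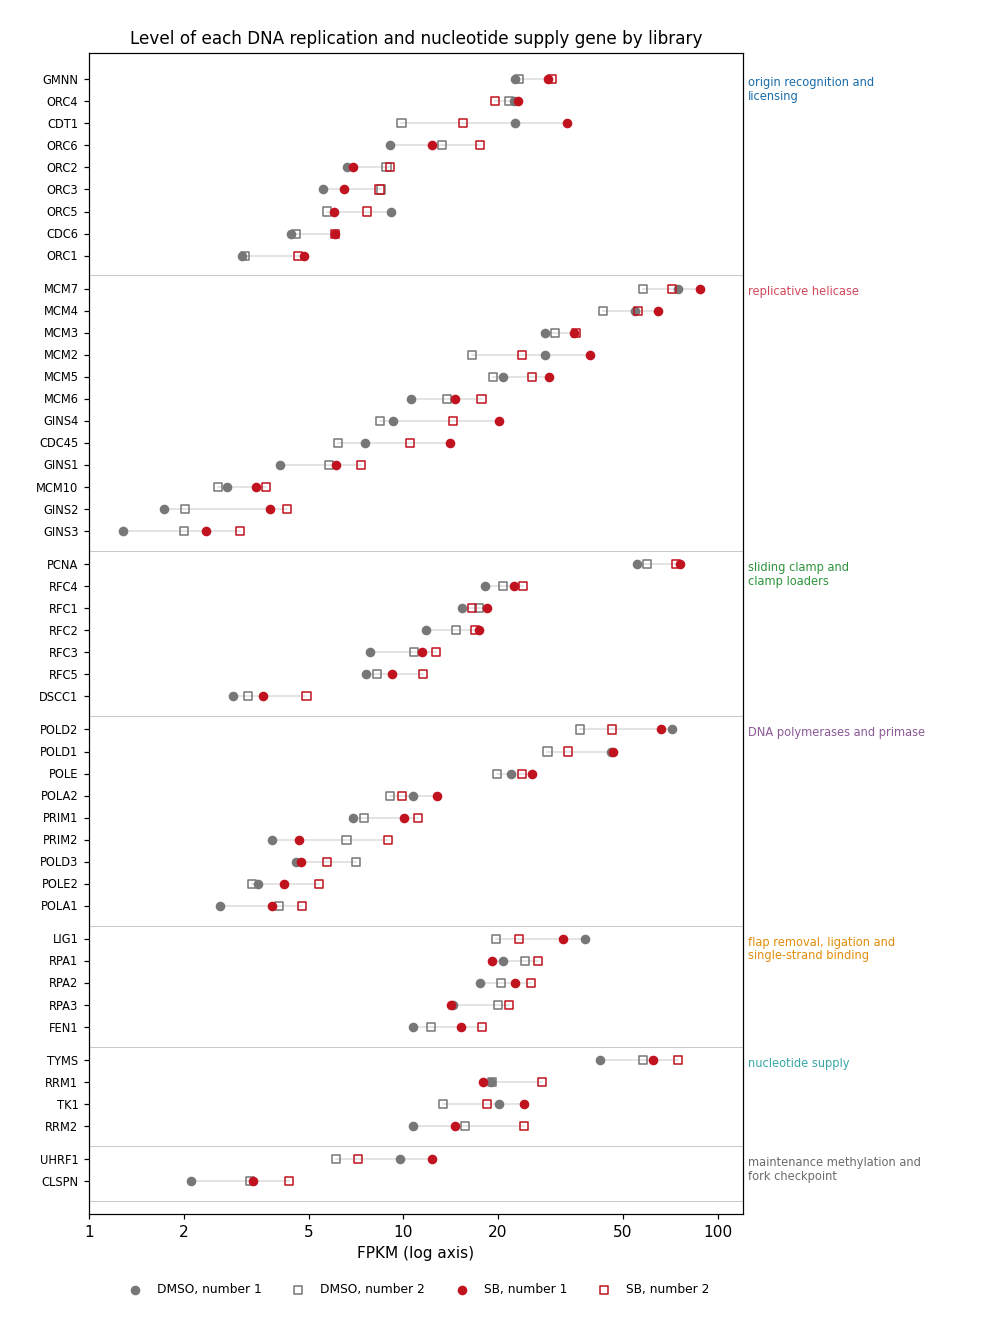
FPKM (log axis) of each of the 48 genes in the 4 libraries, ordered by level within each role group. Grey symbols are DMSO, red symbols are SB, filled circles are replicate number 1 and open squares are replicate number 2, and the red symbols lie to the right of the grey ones in 26 genes.

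The shift was seen in many genes by a small amount, and no member passed the test adjusted over all genes. The fit has no term for the replicate number, and both this call and the counts at an unadjusted p depend on that choice. With such a term, 11 of the 48 genes passed the limma adjustment, all higher with SB (22.9%, against 10.5% of all tested genes). At an unadjusted limma p under 0.05, 31 were then higher, against 17.2% of all tested genes. The labels do not say that a number marks a shared culture or day, so that fit was kept as an alternative. Differences were measured as log2 fold changes on the log2(FPKM + 1) scale, which understates those of low genes, and tested with limma. The median over the 48 genes was 0.34, against 0.04 over all 14909 genes tested. Both SB libraries lay above both DMSO libraries in 26 of the 48 genes (54.2%), as they did in 21.5% of all tested genes. Both SB libraries lay below both DMSO libraries in 0 of the 48 genes, against 16.0% of all tested genes. Within replicate numbers, 38 genes (79.2%) were higher with SB in both, against 40.9% of all tested genes, and 0 were lower in both, against 30.6%. At a limma adjusted p under 0.05, 0 of the 48 genes passed, where 0.134% of all tested genes did. At an unadjusted p under 0.05, 6 genes were higher with SB (12.5%, against 4.80% of all tested genes), namely GINS2, GINS4, CDC45, PRIM1, ORC1 and FEN1. In the other direction 0 genes reached that level, against 5.16% of all tested genes. This count of 6 was 11 with a correction for transcript GC content, 3 with upper-quartile scaling and 3 without mitochondrial and signal recognition particle RNAs in the sum. It was 3 without DMSO replicate 1, 2 without DMSO replicate 2, 1 without SB replicate 1 and 2 without SB replicate 2. With 2 libraries a group, the smallest two-sided p of an exact permutation test is 0.333, so no such test was run.

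**Figure D2:**
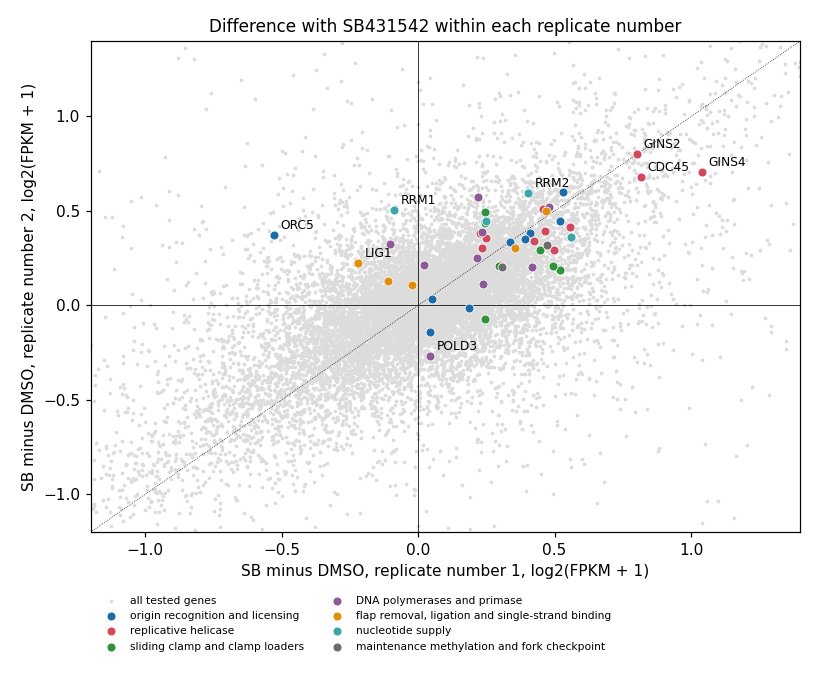
Difference SB minus DMSO on the log2(FPKM + 1) scale in replicate number 1 (horizontal) and in number 2 (vertical) for the 48 genes, coloured by role, over all tested genes in grey (genes beyond the axes are not drawn). The dotted line marks equal differences, and 38 of the 48 genes lie in the upper right part, with GINS2, GINS4 and CDC45 farthest out.

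The helicase genes had the highest median of the role groups, just above that of nucleotide supply (0.412 and 0.404). The order was the same within number 1 (0.462 and 0.326) and reversed within number 2 (0.389 and 0.474). All 12 helicase genes were higher with SB in both replicate numbers. In 10 of the 12 both SB libraries lay above both DMSO libraries (against 40.9% and 21.5% of all tested genes, in this order). Their median log2 fold change was 0.41, and their summed level was 31.6% and 31.3% higher within the replicate numbers. GINS2, a subunit of the 4-protein GINS complex that activates the MCM ring (ENSG00000131153.8, chromosome 16, 85676198 to 85690073), stood at 1.74 and 2.02 FPKM with DMSO and at 3.77 and 4.25 FPKM with SB. The ratios of FPKM, SB over DMSO, were 2.17 and 2.11 within the numbers (log2 fold change 0.80, SE 0.19, limma adjusted p 0.274), and the groups were clearly apart. GINS4, another subunit of the complex (ENSG00000147536.11, chromosome 8, 41529206 to 41545046), stood at 9.28 and 8.42 FPKM with DMSO and at 20.2 and 14.3 FPKM with SB (log2 fold change 0.87, SE 0.22, limma adjusted p 0.301). The SB libraries of GINS4 differed from each other more than the DMSO libraries did, but the lower SB value was still above both DMSO values. CDC45, which joins the ring together with GINS (ENSG00000093009.9, chromosome 22, 19479459 to 19520612), stood at 7.54 and 6.18 FPKM with DMSO and at 14.0 and 10.5 FPKM with SB (log2 fold change 0.75, SE 0.22, limma adjusted p 0.365). These 3 genes had the largest log2 fold changes of the 48, and their 95% intervals were 0.31 to 1.29 for GINS2, 0.30 to 1.44 for GINS4 and 0.18 to 1.31 for CDC45.

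The MCM2 to MCM7 genes, whose proteins form the ring in equal numbers, differed in level among themselves more than between treatments. Per length, MCM6 was the lowest with a mean of 12.2 FPKM and MCM7 the highest with 66.2 FPKM in the DMSO libraries. MCM7 stood at 74.7 and 57.8 FPKM with DMSO and at 88.0 and 71.5 FPKM with SB (log2 fold change 0.27, limma adjusted p 0.799). Here the groups overlapped, because the DMSO library of number 1 was above the SB library of number 2, although SB was higher within each number. MCM4 stood at 54.5 and 43.2 FPKM with DMSO and at 64.8 and 55.7 FPKM with SB, and its SB libraries were above both DMSO libraries by a narrow margin (log2 fold change 0.30, limma adjusted p 0.754). The other genes of the helicase group, MCM2, MCM3, MCM5, MCM6, MCM10, GINS1 and GINS3, had log2 fold changes between 0.26 and 0.49 and limma adjusted p between 0.508 and 0.778. Among these 7, the groups overlapped in 1 gene, MCM2. MCM10, which helps to start the helicase, was a low gene with a mean of 2.66 FPKM with DMSO and 3.52 FPKM with SB.

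Among the 9 genes of origin recognition and licensing, 6 were higher with SB in both replicate numbers, and in 3 of them (ORC1, CDC6 and GMNN) the groups did not overlap. The 6 are 66.7% of the 9 genes, against 40.9% of all tested genes. The 3 are 33.3% of the 9 genes, near the 21.5% of all tested genes. ORC1, the largest subunit of the origin recognition complex and the one that is degraded in S phase in human cells (ENSG00000085840.12, chromosome 1, 52372829 to 52404459), stood at 3.07 and 3.13 FPKM with DMSO and at 4.83 and 4.62 FPKM with SB (log2 fold change 0.48, SE 0.17, limma adjusted p 0.465). Its libraries were tight within each group, at 3.10 ± 0.0441 FPKM with DMSO and 4.73 ± 0.145 FPKM with SB (SD, n = 2 each). CDC6, the loading factor that joins ORC in G1, stood at 4.38 and 4.55 FPKM with DMSO and at 6.05 and 6.08 FPKM with SB (log2 fold change 0.37, SE 0.16, limma adjusted p 0.573). For both ORC1 and CDC6 the SB libraries were clearly apart from the DMSO libraries, and the replicates of a treatment differed by less than the treatments did. GMNN encodes geminin, the inhibitor that binds CDT1 and blocks renewed licensing, and stood at 22.6 and 23.4 FPKM with DMSO and at 28.8 and 29.8 FPKM with SB (log2 fold change 0.34, SE 0.15, limma adjusted p 0.600). Its difference was the same, 0.34, within both replicate numbers.

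The core subunits ORC2 to ORC5 showed differences close to 0. ORC4, the subunit with the highest level, stood at 22.4 and 21.7 FPKM with DMSO and at 23.1 and 19.6 FPKM with SB (log2 fold change -0.05, limma adjusted p 0.976). ORC5 stood at 9.12 and 5.71 FPKM with DMSO and at 6.02 and 7.69 FPKM with SB (log2 fold change -0.08, limma adjusted p 0.975), lower with SB in number 1 and higher in number 2. The log2 fold changes of ORC2 and ORC3 were 0.04 and 0.09. In all 4 of these subunits the groups overlapped, and the 95% intervals of the differences, -0.55 to 0.63 for ORC2 and -0.49 to 0.40 for ORC4, reached to both sides of 0. ORC6 was higher within both numbers (0.41 and 0.38) with a limma adjusted p of 0.760. CDT1, the licensing factor that geminin restrains, stood at 22.6 and 9.86 FPKM with DMSO and at 33.2 and 15.4 FPKM with SB. The ratios of SB over DMSO within the numbers were 1.46 and 1.57, yet the spread between the numbers was larger than the difference between treatments (log2 fold change 0.56, SE 0.52, limma adjusted p 0.837). The log2 fold change of CDT1 was 1.126 without DMSO replicate 1, 0.004 without DMSO replicate 2, 0.038 without SB replicate 1 and 1.092 without SB replicate 2. With no term for the replicate number in these fits, the gap between the numbers entered these values.

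The log2 fold changes of PCNA and the clamp loaders lay between 0.09 and 0.37. The summed level of this group was 33.05% higher with SB in replicate number 1 and 18.7% higher in number 2. PCNA, the sliding clamp that holds polymerases on DNA (ENSG00000132646.10, chromosome 20, 5114953 to 5126626), had the highest level of the group and stood at 55.6 and 59.7 FPKM with DMSO and at 76.1 and 73.5 FPKM with SB (log2 fold change 0.37, SE 0.15, limma adjusted p 0.547). The 4 libraries fell into separate pairs, with the SB pair above. RFC2 and RFC5 are small subunits of the replication factor C loader, which opens the clamp and places it on DNA. RFC2 stood at 11.8 and 14.7 FPKM with DMSO and at 17.4 and 16.9 FPKM with SB (log2 fold change 0.35, limma adjusted p 0.661), and RFC5 at 7.63 and 8.26 FPKM with DMSO and at 9.23 and 11.5 FPKM with SB (log2 fold change 0.34, limma adjusted p 0.686). RFC4, another small subunit, stood at 18.2 and 20.7 FPKM with DMSO and at 22.5 and 24.1 FPKM with SB (log2 fold change 0.25, limma adjusted p 0.759). In all of these the SB libraries were above the DMSO libraries, as in 6 of the 7 genes of the group and 21.5% of all tested genes. The exception was RFC1, the large subunit, with a log2 fold change of 0.09 and a lower value with SB in number 2. RFC3 and DSCC1, the latter a subunit of the alternative loader that acts in sister chromatid cohesion, had log2 fold changes of 0.35 and 0.37.

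Among the polymerase genes the small primase subunit and the accessory subunit of polymerase epsilon had the largest differences, while those of the 3 polymerase delta members were close to 0. PRIM1, the catalytic primase subunit that lays down RNA primers (ENSG00000198056.13, chromosome 12, 56731596 to 56752373), stood at 6.91 and 7.48 FPKM with DMSO and at 10.02 and 11.2 FPKM with SB (log2 fold change 0.50, SE 0.17, limma adjusted p 0.438). POLE2 stood at 3.45 and 3.29 FPKM with DMSO and at 4.18 and 5.38 FPKM with SB (log2 fold change 0.40, limma adjusted p 0.640). POLE, the catalytic subunit of the leading-strand polymerase, stood at 22.0 and 19.9 FPKM with DMSO and at 25.7 and 23.9 FPKM with SB (log2 fold change 0.23, limma adjusted p 0.764). In these 3 genes the SB libraries were above both DMSO libraries (33.3% of the 9 polymerase and primase genes, against 21.5% of all tested genes).

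Polymerase delta copies the lagging strand, and 3 of its subunits are members. Its subunit POLD4 was not a member and is named after its values were seen. It stood at 55.5 and 40.1 FPKM with DMSO and at 39.7 and 33.7 FPKM with SB (log2 fold change -0.36, limma adjusted p 0.743). POLD1, the catalytic subunit, stood at 45.7 and 28.8 FPKM with DMSO and at 46.4 and 33.5 FPKM with SB (log2 fold change 0.12, limma adjusted p 0.965). POLD2, the gene with the highest level in the group, stood at 71.4 and 36.6 FPKM with DMSO and at 66.3 and 46.2 FPKM with SB (log2 fold change 0.11, limma adjusted p 0.974). Both were higher in number 1 than in number 2 under each treatment, and the treatments overlapped. POLD3 had the lowest log2 fold change of all 48 genes and stood at 4.56 and 7.09 FPKM with DMSO and at 4.74 and 5.71 FPKM with SB (log2 fold change -0.11, SE 0.25, limma adjusted p 0.959). The 95% interval of its difference, -0.76 to 0.54, includes the median of the 48 genes. The remaining POLA1, POLA2 and PRIM2 had log2 fold changes between 0.18 and 0.31, were higher in both numbers, and overlapped between treatments.

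Flap removal, ligation and single-strand binding gave the lowest median of the role groups, 0.04. SB was higher in both replicate numbers in 2 of the 5 genes (40.0%), near the 40.9% of all tested genes. FEN1, the nuclease that trims the 5′ flaps of Okazaki fragments (ENSG00000168496.3, chromosome 11, 61792637 to 61797244), stood at 10.7 and 12.2 FPKM with DMSO and at 15.2 and 17.7 FPKM with SB (log2 fold change 0.48, SE 0.18, limma adjusted p 0.480). RPA2, the middle subunit of the single-strand binding protein RPA, stood at 17.6 and 20.4 FPKM with DMSO and at 22.7 and 25.4 FPKM with SB (log2 fold change 0.33, limma adjusted p 0.675). FEN1 and RPA2 were the 2 genes of the group (40.0%, against 21.5% of all tested genes) in which the SB libraries lay above the DMSO libraries. The other subunits of RPA did not share this. RPA1, the large subunit, stood at 20.7 and 24.4 FPKM with DMSO and at 19.1 and 26.8 FPKM with SB (log2 fold change 0.01, limma adjusted p 0.998), and RPA3, the small one, at 14.4 and 20 FPKM with DMSO and at 14.2 and 21.7 FPKM with SB (log2 fold change 0.04, limma adjusted p 0.990). LIG1, the ligase that seals Okazaki fragments, stood at 37.7 and 19.7 FPKM with DMSO and at 32.3 and 23.3 FPKM with SB, with a log2 fold change of 0.00 (limma adjusted p 0.999). For LIG1 the direction was opposite in the 2 replicate numbers (-0.22 and 0.23). The signs of RPA1 and LIG1 turned under the 4 other scalings and that of RPA3 under upper-quartile scaling, so no direction is given for these genes.

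Nucleotide supply was the group with the second highest median, 0.40. Its summed level was 29.3% and 36.7% higher with SB within the replicate numbers. TYMS, the thymidylate synthase that makes dTMP from dUMP (ENSG00000176890.15, chromosome 18, 657604 to 673578), stood at 42.1 and 57.9 FPKM with DMSO and at 62.5 and 74.6 FPKM with SB (log2 fold change 0.46, SE 0.22, limma adjusted p 0.632). RRM2, the small ribonucleotide reductase subunit whose level follows S phase (ENSG00000171848.14, chromosome 2, 10120698 to 10131419), stood at 10.8 and 15.7 FPKM with DMSO and at 14.6 and 24.2 FPKM with SB (log2 fold change 0.50, SE 0.32, limma adjusted p 0.745). TK1, the thymidine kinase of the salvage route, stood at 20.2 and 13.3 FPKM with DMSO and at 24.1 and 18.5 FPKM with SB (log2 fold change 0.35, limma adjusted p 0.786). These 3 of the 4 genes of the group were higher with SB within both numbers, against 40.9% of all tested genes. Only for TYMS, 1 of the 4, did the groups not overlap, near the 21.5% of all tested genes. RRM1, the large reductase subunit, stood at 19.1 and 19.1 FPKM with DMSO and at 17.9 and 27.5 FPKM with SB (log2 fold change 0.21, limma adjusted p 0.892), with the SB library of number 2 above the other 3 libraries. Without that library the log2 fold change of RRM1 was -0.091.

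Of the last pair of members, CLSPN encodes claspin, an adaptor of the fork checkpoint kinase, and UHRF1 recruits the methyltransferase that copies DNA methylation behind the fork. CLSPN stood at 2.11 and 3.25 FPKM with DMSO and at 3.31 and 4.32 FPKM with SB (log2 fold change 0.40, SE 0.25, limma adjusted p 0.741), with the lower SB value just above the higher DMSO value. UHRF1 stood at 9.75 and 6.11 FPKM with DMSO and at 12.3 and 7.17 FPKM with SB (log2 fold change 0.25, SE 0.34, limma adjusted p 0.908). It was higher with SB within both numbers (0.31 and 0.20), with a larger gap between the numbers than between the treatments.

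Between the replicate numbers the members differed about as much as between the treatments. The median absolute difference between the numbers, averaged over the treatments, was 0.30 on the log2(FPKM + 1) scale for the 48 genes, beside a median absolute difference between treatments of 0.34. Over all tested genes the same medians were 0.25 and 0.19. In 21 of the 48 genes the numbers differed by more than the treatments. In number 1, 15 genes were higher under both treatments, and in number 2, 26 genes were. The shares of all tested genes are not given for these counts, which only describe the members. The widest gap was that of CDT1, with number 2 minus number 1 at -1.12 with DMSO and -1.05 with SB. POLD1, POLD2, LIG1, MCM2 and UHRF1 were also higher in number 1 under both treatments. PRIM2 and RRM2 had the widest gaps in the other direction, of 0.66 with DMSO and 0.81 with SB for PRIM2 and 0.50 with DMSO and 0.69 with SB for RRM2. For MCM2, which stood at 28.3 and 16.5 FPKM with DMSO and at 39.2 and 23.9 FPKM with SB, the difference between treatments was nearly equal within the numbers (0.46 and 0.51) while its limma adjusted p was 0.778. Its log2 fold change ran from 0.112 without DMSO replicate 2 to 0.854 without DMSO replicate 1. With no term for the replicate number in these fits, the gap between the numbers entered both values.

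The gap between the numbers moved with the base composition of the transcripts. The GC content of the longest annotated transcript had a median of 56.4% among the 15 genes that were higher in number 1 and of 44.1% among the 26 that were higher in number 2. Over the 48 genes, which share the same 4 libraries and are not independent replicates, Pearson's r between GC content and the gap was -0.74, and over 14880 tested genes it was -0.52. Between GC content and the log2 fold change SB over DMSO it was 0.15 over the 48 genes. With a correction for transcript GC content, added after the data were seen, the median log2 fold change over the 48 genes was 0.29, 11 genes (against 7.96% of all tested genes) were higher at an unadjusted limma p under 0.05 and 0 passed the adjustment.

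**Figure D3:**
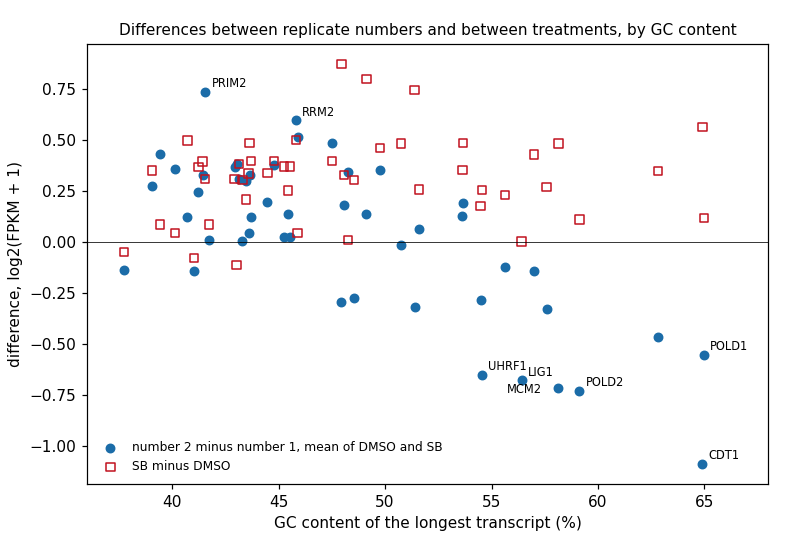
Differences on the log2(FPKM + 1) scale for the 48 genes against the GC content (%) of the longest transcript. Blue points are replicate number 2 minus number 1, averaged over DMSO and SB, and run from above 0 at low GC content to below -1 for CDT1 at 64.9%, while the red squares, SB minus DMSO, lie mostly above 0 at any GC content.

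Some members share sequence or position with other genes, and whether strand was used in counting is not given in the sources used here. In the annotation, 7 of the 48 genes (TYMS, POLA2, MCM2, GINS4, RRM2, PRIM1 and GINS3) shared at least 10% of their exon bases with 1 other gene. TYMS shared 39.2% with ENOSF1 on the opposite strand, which stood at 33.4 and 27.6 FPKM with DMSO and 35.1 and 30.8 FPKM with SB. Reads of TYMS and ENOSF1 cannot be told apart there without strand. Some smaller shares lay with genes of much higher level on the same strand. FEN1 shared 1.98% with FADS2 (276 and 207 FPKM with DMSO, 429 and 357 FPKM with SB). PRIM1 shared 1.35% with NACA (426 and 584 FPKM with DMSO, 457 and 570 FPKM with SB). The part of these overlaps in the values was not tested. RRM2 has a pseudogene copy, RRM2P3, that stood at 3.34 and 2.87 FPKM with DMSO and 5.617 and 5.998 FPKM with SB, so its reads may have been split. Another copy, RRM2P2, stood at 0.419 FPKM in SB replicate 2 and at 0 in the other libraries, and the highest value of any further pseudogene row named after a member was 0.179 FPKM, for FEN1P1 in SB replicate 2.

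To see whether the rest of the replication and cell cycle programme stood the same way, 4 further lists were read from the same fit. All 4 lists, like the members, were put together with earlier results of these data known. Of 30 other fork and origin factors, 21 were higher in both replicate numbers and 3 lower (40.9% and 30.6% of all tested genes), with a median log2 fold change of 0.20. RNASEH2B, a subunit of the enzyme that removes ribonucleotides from DNA, stood at 9.47 and 9.79 FPKM with DMSO and at 19.3 and 17.4 FPKM with SB (log2 fold change 0.86, limma adjusted p 0.200). TIMELESS, which stabilizes the fork, and ASF1B, a histone chaperone, had log2 fold changes of 0.63 and 0.62. Both SB libraries lay above both DMSO libraries in 16 of the 30 (21.5% of all tested genes). They lay below in 3 (16.0%), namely POLD4 (-0.36), POLE4 (-0.26) and DONSON (-0.14). At an unadjusted p under 0.05, 4 of the 30 were higher and 0 lower (4.80% and 5.16% of all tested genes), and 0 passed the adjustment. Of 35 other genes of nucleotide synthesis and salvage, 25 were higher in both numbers and 4 lower, with a median of 0.22, against the same shares of all tested genes. Both SB libraries lay above both DMSO libraries in 19 of the 35 and below them in 1, RRM2B (-0.53). Here the one-carbon enzymes MTHFD1 (0.67) and MTHFD2 (0.59) and the nucleoside diphosphate kinase NME1 (0.61) had the smallest p, 7 of the 35 were higher at an unadjusted p under 0.05 (4.80% of all tested genes), 0 were lower, and 0 passed the adjustment.

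The 30 mitosis and G2/M genes, which act after replication, were also mostly higher with SB. Of them 29 were higher in both replicate numbers and 0 were lower in both, and the SB libraries lay above the DMSO libraries in 22 (40.9%, 30.6% and 21.5% of all tested genes, in this order). Their median log2 fold change was 0.48, and 14 of the 30 were higher at an unadjusted p under 0.05 (4.80% of all tested genes), with 0 lower and 0 past the adjustment. UBE2C, the ubiquitin-conjugating enzyme of the anaphase-promoting complex, stood at 44.3 and 48.4 FPKM with DMSO and at 79.3 and 89.0 FPKM with SB (log2 fold change 0.85, limma adjusted p 0.209). CDC20 and CENPF had log2 fold changes of 0.73 and 0.74. The difference between this list and the 48 genes was not tested.

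The regulators of the G1 to S transition stood in both directions. Of 33 tested regulators, 18 were higher in both numbers (54.5%, against 40.9% of all tested genes) and 9 lower (against 30.6%), with a median of 0.17. Both SB libraries lay above both DMSO libraries in 11 (33.3%, against 21.5%) and below them in 2 (against 16.0%). At an unadjusted p under 0.05, 3 were higher (9.09%) and 2 were lower (6.06%), near the 4.80% and 5.16% of all tested genes, and 0 passed the adjustment. The 3 regulators with the smallest p encode inhibitors of cyclin-dependent kinases and did not share a direction. CDKN1A, which encodes p21 (ENSG00000124762.13, chromosome 6, 36676460 to 36687339), stood at 97.2 and 89.5 FPKM with DMSO and at 56.9 and 55.9 FPKM with SB (log2 fold change -0.72, SE 0.15, limma adjusted p 0.245). CDKN2B, which encodes p15 and is a known TGFβ target, stood at 1.29 and 0.768 FPKM with DMSO and at 0.130 and 0.0488 FPKM with SB (log2 fold change -0.89, SE 0.26, limma adjusted p 0.376). CDKN2D was higher with SB, at 12.4 and 10.8 FPKM with DMSO and at 22.0 and 18.9 FPKM with SB (log2 fold change 0.77, SE 0.18, limma adjusted p 0.270). Among the other inhibitors, chosen after their values were seen, CDKN1B, CDKN1C and CDKN2C had log2 fold changes of 0.17, 0.47 and 0.35 and were higher within both numbers, while CDKN2A (0.15) differed in direction between them. The G1 cyclins CCND1, CCND2, CCNE1 and CCNE2, likewise chosen, had log2 fold changes of -0.17, -0.21, -0.16 and -0.23 with overlapping groups. CCND3 (0.53), CCNA2 (0.61), CDC25A (0.475), MYBL2 (0.44), CDK4 (0.435) and E2F1 (0.33) were among the 11 with both SB libraries above both DMSO libraries. MYBL2, CDK4 and CDKN2D were the 3 that were higher at an unadjusted limma p under 0.05.

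**Figure D4:**
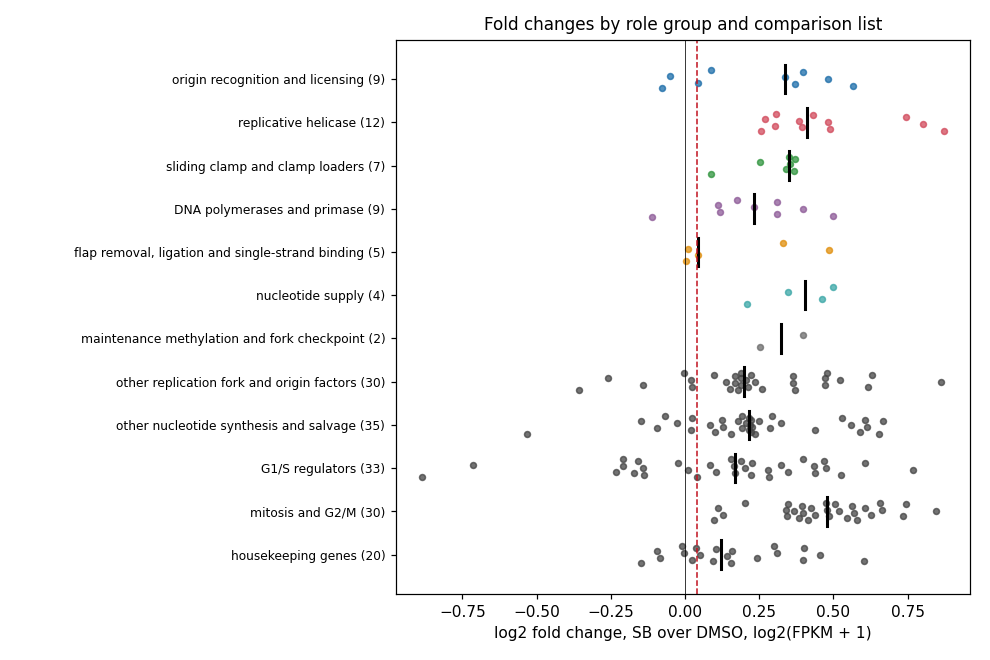
Log2 fold changes (SB over DMSO, log2(FPKM + 1) scale) of single genes by role group and comparison list, with the number of tested genes in brackets. Black bars are medians, the red dashed line is the median of all tested genes (0.04), and the helicase group (0.41) and the mitosis list (0.48) have the highest medians among groups of more than 5 genes.

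The make-up of the libraries differed between treatments beside these results. The 12 endothelial markers summed to 2541 and 2155 FPKM with DMSO and to 2346 and 2030 FPKM with SB, and PECAM1, which encodes CD31, was present in all 4 libraries (153 to 197 FPKM). Of these 12, 8 were lower with SB in both numbers and 2 higher (30.6% and 40.9% of all tested genes). ENG and ROBO4 had the lowest log2 fold changes of the list, -1.72 and -1.09. ENG stood at 64.2 and 47.9 FPKM with DMSO and at 17.8 and 14.7 FPKM with SB (limma adjusted p 0.0986). The 12 hematopoietic markers summed to 1235 and 1149 FPKM with DMSO and to 1386 and 1247 FPKM with SB, with SPN (CD43) at 31.6 and 36.2 FPKM with DMSO and at 52.9 and 66.8 FPKM with SB, while PTPRC (CD45) was at most 0.202 FPKM. HBE1, an embryonic globin, made up the largest share of that sum and stood the other way, at 614 and 676 FPKM with DMSO and at 459.7 and 524 FPKM with SB. Of the 11 tested hematopoietic markers, 10 were higher in both numbers (90.9%, against 40.9% of all tested genes), with a median of 0.58 on the log2 scale. The 12 endoderm and liver markers summed to 348 and 353 FPKM with DMSO and to 81.4 and 53.6 FPKM with SB, and the 12 mesenchymal markers to 1021 and 933 FPKM and to 573 and 489.8 FPKM. Of the 11 endoderm and liver markers tested, 4 fell past the limma adjustment, which 0.134% of all tested genes passed in either direction. In each of these lists 0 markers were at 0 in all libraries. The 8 pluripotency markers summed to 71.7 and 92.3 FPKM with DMSO and to 94.4 and 116 FPKM with SB, most of it LIN28A and DPPA4, while NANOG stood at 0.00841 and 0.0261 FPKM with DMSO and at 0.0104 and 0.00785 FPKM with SB. For the 20 housekeeping genes the median difference on the log2 scale was 0.12, and their sum was 11.9% and 11.7% higher with SB within the numbers. The part of these shifts in the values of the replication genes was not tested.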

How the data were processed

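RNA-seq was performed on 4 libraries, 2 DMSO and 2 SB by their titles. The authors deposited FPKM values, 1 column per library, made by a service company from libraries built with a TruSeq kit. The submitters' processing notes name BWA, Bowtie and RSEM and the build hg19 without roles. However, GENCODE 29, which is on GRCh38, held 95.5% of the versioned identifiers, and 99.9964% of those with a single row had the same position there (after adding 1 to the start), so GRCh38 coordinates, counted from 1, are given.

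From these values, log2(FPKM + 1) was computed for genes with a mean of at least 1 FPKM in at least 1 group. SB was compared with DMSO with limma 3.58.1 in R 4.3.3 (empirical Bayes with a trend, group as the only term, two-sided, fitted to the 4 libraries together). Benjamini-Hochberg adjustment ran over all 14909 genes tested. The study names Student's t test for comparing groups in general and gene set enrichment analysis for its RNA-seq data, and no set test was run here. Relative depth came from single-exon genes with 1 transcript longer than 500 nt, whose FPKM times effective length (length minus a fitted fragment length of 270 to 290 nt) stepped by 1 fragment. Of 1337 to 1387 genes per library with values near 1 to 3 fragments, 97.0% to 97.5% lay within 3% of a fragment of a whole number. Counting error beyond this is unknown.

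The members and lists were chosen with earlier results of these data known. Values in each library are given for up to 3 members with the smallest p and the 2 highest in each role group, and for any member lower with SB. Further members are described where a result turned on them. In the other lists, up to 3 genes with the smallest p are named, and further genes were chosen after their values were seen. Alternatives tried were a block for the replicate number, other filters, other scalings, another pseudocount and the removal of each library. A correction for transcript GC content (loess per library on the longest GENCODE transcript) was added after the data were seen.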

Additional observations from a re-analysis of the deposited data

How the results depend on the processing

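The median log2 fold change over the 48 genes stayed above 0 under all alternatives run: 0.374 with a pseudocount of 0.1, 0.297 when mitochondrial and signal recognition particle RNAs were left out of the sum, 0.283 with upper-quartile scaling, 0.293 with the GC correction, alone or with the replicate block, and 0.283 to 0.364 without single libraries. The number of members higher at an unadjusted p under 0.05, 6 in the report, was 3 with upper-quartile scaling, 3 without mitochondrial and signal recognition particle RNAs, 11 with the GC correction and 1 to 3 without single libraries (1 without SB replicate 1), where the lone library of a group was assumed to vary like the other group. The GC correction was chosen after seeing the data. Over all genes, 20 passed the adjustment in the report, 31 with quantile normalization, 0 without a filter, 136 with the GC correction and 0 to 16 without single libraries (0 without DMSO replicate 1 and 7 without SB replicate 1).

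With a replicate block in the fit, 11 of the 48 members passed the adjustment (22.9%), all of them higher with SB, as did 1564 of all tested genes (10.5%), and 31 members were higher at an unadjusted p under 0.05, against 17.2% of all tested genes. The 11 were CDC45, GINS4, CDT1, MCM2, TYMS, FEN1, GINS2, MCM5, RRM2, PRIM1 and PCNA, with limma adjusted p between 0.0222 and 0.0468. With the block and the GC correction, 11 members passed, 30 were higher at an unadjusted p under 0.05, and 1744 of all tested genes passed. The correlation of deviations between libraries of the same number was 0.53 across genes, but the labels do not say that a number marks a shared culture or day, and 2 pairs are too few to establish the pairing.

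Without 1 library, the log2 fold change turned or moved by over 1.5 times in 34 of the 48 members, and it turned in 13, PRIM2, UHRF1 and RRM1 among them. These fits had no term for the replicate number, so the gap between the numbers entered the log2 fold change. PRIM2 and UHRF1 were higher with SB within both numbers, while RRM1 differed in direction between them. The share of all tested genes that turned or moved is not given. LIG1 was -0.022 with median-ratio scaling, -0.031 with quantile normalization, -0.039 without mitochondrial and signal recognition particle RNAs, -0.055 with upper-quartile scaling and -0.448 to 0.454 without single libraries. RPA1 was -0.015, -0.025, -0.032 and -0.047 under the same settings, -0.026 with the GC correction, with or without the block, and -0.222 to 0.242 without single libraries. With upper-quartile scaling ORC2 was -0.008, RPA3 -0.011 and the median of the flap removal group -0.011. With the GC correction, with or without the block, ORC2 was -0.005 and RPA3 -0.001. Without single libraries, the log2 fold change ran from -0.14 to 0.226 for ORC2, -0.181 to 0.352 for ORC3, -0.162 to 0.065 for ORC4, -0.374 to 0.22 for ORC5, -0.208 to 0.442 for POLD1, -0.361 to 0.583 for POLD2, -0.382 to 0.158 for POLD3, -0.097 to 0.716 for PRIM2, -0.246 to 0.334 for RPA3, -0.091 to 0.506 for RRM1 and -0.098 to 0.606 for UHRF1. Under the stricter filter (at least 5 FPKM in at least 2 libraries), 40 of the members were tested. All alternatives listed beforehand were run.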

Other observations

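Among the 41 members with a promoter sequence, the 20 with an E2F match had a median log2 fold change of 0.371 and the 21 without one a median of 0.309. Over all tested genes with a promoter sequence, the medians were 0.0905 for the 550 with a match and 0.043 for the 9656 without. No test was made of these differences, and CDC45, PRIM1, ORC1 and FEN1 were among the members without a match.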
